A study of Mus musculus with 6 samples.

Results

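Major histocompatibility complex (MHC) class II molecules carry peptides from endosomes to the cell surface, where CD4+ T cells read them. Transcripts of 9 genes of this system were followed in 6 RNA-seq libraries of mouse lateral amygdala, out of 50383 gene identifiers in the deposited tables. They are the class II chains H2-Aa, H2-Ab1 and H2-Eb1, the invariant chain Cd74, the peptide exchange molecules H2-DMa, H2-DMb1 and H2-DMb2, their modulator H2-Oa, and the transactivator Ciita. The genes were chosen by symbol, with results of these libraries known, so their differences between the groups are a description and not a test. The groups, of 2 libraries each, were labelled Baf53b siRNA, scrambled siRNA and control. All came from male 129xC57BL/6 hybrid mice 2 to 3 months old. The siRNA (a short RNA that directs cleavage of a matching transcript) against Baf53b was injected 1 day after training, per the series' design text. The sources used here give neither what the control mice received nor the time of dissection, nor do they say whether a library pooled the 4 mice that the protocol names. Nothing in the labels says that the replicates of a group came from separate animals, so the spread between them may be technical.

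A class II molecule is an alpha and a beta chain that assemble in the endoplasmic reticulum around the invariant chain, which blocks the peptide groove and steers the complex to endosomes. There the invariant chain is cut down to a short fragment, DM exchanges that fragment for antigen peptides, and DO restrains DM. Transcription of the class II chains depends on CIITA, a co-activator that binds no DNA itself and is recruited by factors seated on the promoters. In the healthy brain parenchyma class II transcripts are scarce, and microglia, border macrophages and entering leukocytes are the cells known to make them.

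The targeted gene was checked first. Actl6b, which encodes BAF53B, the neuronal actin-like subunit of the BAF chromatin remodelling complex, was at 42.8 and 39.6 FPKM (fragments scaled to transcript length and to the size of the library) in libraries labelled Baf53b siRNA. In scrambled siRNA it stood at 43.8 and 43.9, and in control libraries at 42.9 and 44.1. Its log2 difference was -0.09 (SE 0.12) against scrambled siRNA, so no knockdown of the transcript was detectable in these libraries, and their group is known from the label only. Implied depth lay between 6421000 and 10664000 fragments per library, and mitochondrial genes took up to 29.6% of summed FPKM, a larger share in replicate 2 of each group.

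Promoter windows of class II genes are shown because class II promoters carry elements that gather the factors for CIITA. Binding to these windows was not measured here. Below are 100 bases from the promoter windows of RefSeq (GRCm38.p6, 250 bases before to 50 after a start), printed 5′ to 3′ along the gene's strand. Capitals mark TGATTGG, the CCAAT letters of the Y box bound by NF-Y, and GNAAC, letters common at the head of the X box bound by RFX. Both sets of letters were chosen with the windows in view.
H2-Aa (chr17:34287834-34287933, minus strand): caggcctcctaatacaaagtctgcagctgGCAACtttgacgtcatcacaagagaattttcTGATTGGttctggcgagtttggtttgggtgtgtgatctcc
H2-Eb1 (chr17:34305746-34305845, plus strand): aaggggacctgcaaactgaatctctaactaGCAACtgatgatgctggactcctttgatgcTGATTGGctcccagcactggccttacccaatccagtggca
H2-DMb1 (chr17:34153068-34153167, plus strand): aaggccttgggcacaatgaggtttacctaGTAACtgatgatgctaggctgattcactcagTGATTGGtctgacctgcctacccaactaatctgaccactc
H2-DMb2 (chr17:34145097-34145196, plus strand): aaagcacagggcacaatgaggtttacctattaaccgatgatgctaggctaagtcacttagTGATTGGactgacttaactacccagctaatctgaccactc
H2-Oa (chr17:34092274-34092373, plus strand): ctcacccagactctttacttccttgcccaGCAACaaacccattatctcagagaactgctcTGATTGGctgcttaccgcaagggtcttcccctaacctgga
H2-Ob (chr17:34238786-34238885, plus strand): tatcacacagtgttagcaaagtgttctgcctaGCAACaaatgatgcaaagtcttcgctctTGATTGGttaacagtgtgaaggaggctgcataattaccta

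H2-Ob, which encodes the other chain of DO, is shown beside H2-Oa as its partner. TGATTGG began 50 bases before the start in H2-Aa, 61 in H2-Eb1, 63 in H2-DMb1, 92 in H2-DMb2, 45 in H2-Oa and 59 in H2-Ob. GNAAC began 31 bases ahead of TGATTGG in H2-Aa, H2-DMb1 and H2-Oa, 30 in H2-Eb1 and 28 in H2-Ob. In H2-DMb2 these letters are absent although the surrounding bases resemble H2-DMb1. Searched on both strands of all 32851 RefSeq mouse windows, TGATTGG was present in 7.82%, and GNAAC beginning 20 to 40 bases ahead of TGATTGG in 0.569%. Windows were matched for 6 of the 9 genes. The table holds 2 for H2-DMa, both starting upstream of the span that the deposited tables give the gene, and neither holds TGATTGG. H2-Ab1, Cd74 and Ciita have no entry. The printed stretches of H2-DMb1, H2-DMb2 and H2-Oa lie wholly or in part inside the deposited spans of those genes.

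The class II chains were near the bottom of detection in control amygdala and abundant in libraries labelled Baf53b siRNA. H2-Aa, the alpha chain of I-A (chr17:34282744-34287827, mm10), was at 95.9 and 43.4 FPKM in libraries labelled Baf53b siRNA, 6.69 and 3.54 in scrambled siRNA, and 0.660 and 0.377 in control libraries. The 3 groups did not overlap, and scrambled siRNA lay between the others. On the log2(FPKM + 1) scale it was higher by 3.47 (SE 0.39) in Baf53b siRNA against scrambled siRNA, by 5.44 in Baf53b siRNA against control, and by 1.97 in scrambled siRNA against control.

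H2-Ab1, the I-A beta chain (chr17:34263209-34269418), was at 44.6 and 21.9 FPKM in libraries labelled Baf53b siRNA, 3.12 and 1.81 in scrambled siRNA, and 0.243 and 0.0349 in control libraries. The deposited intervals of both control values reach 0 and imply 1.60 and 0.104 fragments, so the control level is only an upper bound of 0.628 FPKM. H2-Eb1, the beta chain of I-E (chr17:34305877-34316199), was at 64.0 and 29.7 FPKM in libraries labelled Baf53b siRNA, 5.16 and 2.51 in scrambled siRNA, and 0.375 and 0.537 in control libraries. Its 3 groups were apart as well, with control libraries resting on 9.0 and 14.7 implied fragments. Against scrambled siRNA, the Baf53b siRNA log2 difference was 3.25 (SE 0.34) for H2-Ab1 and 3.26 (SE 0.39) for H2-Eb1.

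The I-E alpha gene behaved unlike its partner. H2-Ea-ps, the locus of the I-E alpha chain, annotated as a polymorphic pseudogene because the C57BL/6 allele is not transcribed, was listed at 0 in all 6 libraries, while H2-Eb1 reached 64.0 FPKM. H2-Eb2, a related beta chain gene, stayed low, at 0.255 and 0.0649 FPKM in libraries labelled Baf53b siRNA, 0.0310 and 0.0169 in scrambled siRNA, and 0 in both control libraries.

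Cd74, the invariant chain and also a receptor for the cytokine MIF, was the most abundant of the 9 in libraries labelled Baf53b siRNA. It lies on chr18:60803848-60812646 (mm10). Cd74 was at 211 and 102 FPKM in libraries labelled Baf53b siRNA, 9.74 and 7.37 in scrambled siRNA, and 1.18 and 0.416 in control libraries. All 3 groups were apart, and the implied fragments behind the values were 1921 and 1477 in Baf53b siRNA, 156 and 212 in scrambled siRNA, and 27.2 and 9.98 in control libraries. The group means were 157 ± 76.6 FPKM in Baf53b siRNA and 8.56 ± 1.68 in scrambled siRNA (SD, n = 2 each), an 18.3-fold ratio of means. The log2 difference was 3.96 (SE 0.36) for Baf53b siRNA against scrambled siRNA, 6.40 for Baf53b siRNA against control, and 2.43 for scrambled siRNA against control.

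**Figure D1:**
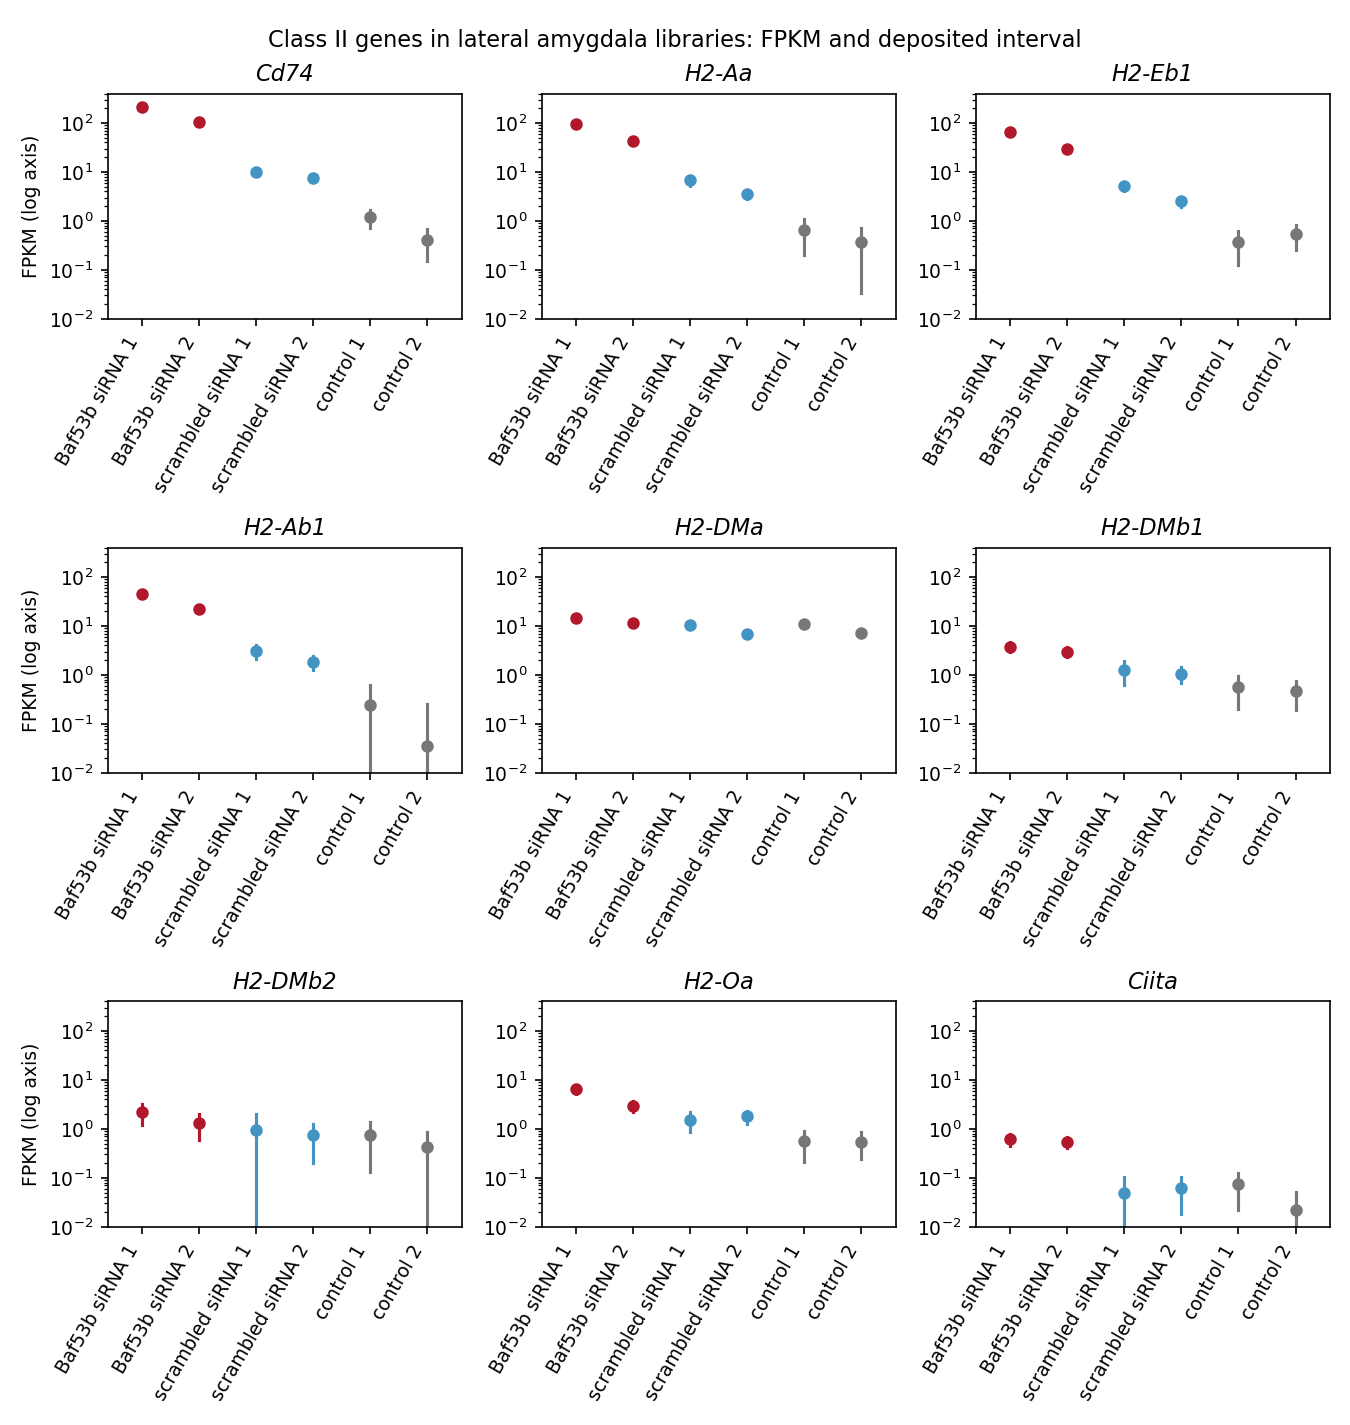
FPKM of each of the 9 genes in every library on a log axis, with the deposited interval as a bar; an interval that reaches 0 is drawn down to the floor of the axis. Cd74 and the 3 class II chains sit between 21.9 and 211 FPKM in libraries labelled Baf53b siRNA, between 1.81 and 9.74 in scrambled siRNA, and at or under 1.18 in control libraries, while H2-DMa is at 6.79 FPKM or more in every library.

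The DM and DO genes were less spread out between the groups than the chains they serve. H2-DMa, the DM alpha chain (chr17:34135182-34139101), was at 14.2 and 11.5 FPKM in libraries labelled Baf53b siRNA, 10.3 and 6.79 in scrambled siRNA, and 11.0 and 7.06 in control libraries. Both Baf53b siRNA values were above all others, by a narrow margin, and scrambled siRNA and control overlapped. H2-DMa was thus already present in control tissue, where every other member was at or below 1.18 FPKM. Its log2 difference was 0.56 (SE 0.26) for Baf53b siRNA against scrambled siRNA and -0.07 for scrambled siRNA against control.

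The beta chains of DM were lower than the alpha chain in all 6 libraries. H2-DMb1 (chr17:34153072-34160230) was at 3.79 and 3.00 FPKM in libraries labelled Baf53b siRNA, 1.27 and 1.06 in scrambled siRNA, and 0.570 and 0.474 in control libraries. H2-DMb2 (chr17:34143307-34151553) was at 2.21 and 1.32 FPKM in libraries labelled Baf53b siRNA, 0.941 and 0.741 in scrambled siRNA, and 0.743 and 0.431 in control libraries. The H2-DMb1 groups were in 3 separate steps, whereas scrambled siRNA and control overlapped for H2-DMb2. Their log2 differences against scrambled siRNA were 1.02 (SE 0.17) for H2-DMb1 and 0.57 (SE 0.22) for H2-DMb2. These neighbouring genes share 27.2% of the 50-base windows of the longest H2-DMb1 transcript, so their reads may have been split between them, and only their sum is firm. The sum was 6.00 and 4.32 FPKM in libraries labelled Baf53b siRNA, 2.21 and 1.80 in scrambled siRNA, and 1.31 and 0.904 in control libraries. No other pair of the 9 shares such windows.

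H2-Oa, the DO alpha chain (chr17:34092340-34095234), was at 6.48 and 2.97 FPKM in libraries labelled Baf53b siRNA, 1.53 and 1.79 in scrambled siRNA, and 0.554 and 0.552 in control libraries. Its groups were apart, with a log2 difference of 1.04 (SE 0.29) for Baf53b siRNA against scrambled siRNA and 1.81 for Baf53b siRNA against control. Without Baf53b siRNA replicate 1 these were 0.58 and 1.36. H2-Ob, its partner, was at 2.07 and 1.20 FPKM in libraries labelled Baf53b siRNA, 0.567 and 0.623 in scrambled siRNA, and 0.292 and 0.244 in control libraries, below the floor of a mean of 1 FPKM set for testing. The ratio of H2-Oa to H2-Ob FPKM was 3.13 and 2.49 in Baf53b siRNA, 2.70 and 2.88 in scrambled siRNA, and 1.89 and 2.26 in control libraries.

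Ciita, the co-activator on which the class II chains depend (chr16:10488178-10527564), was low in every library. It was at 0.609 and 0.548 FPKM in libraries labelled Baf53b siRNA, 0.0494 and 0.0612 in scrambled siRNA, and 0.0735 and 0.0220 in control libraries. Both Baf53b siRNA libraries were above all 4 others, and scrambled siRNA and control overlapped, unlike for Cd74 and the class II chains. The Baf53b siRNA values rest on 57.1 and 60.1 implied fragments, against 3.20 and 8.10 in scrambled siRNA and 8.10 and 2.25 in control libraries. The mean over the 6 libraries, 0.227 FPKM, was below the floor, so Ciita is not among the tested genes. In a fit with no floor, its log2 difference against control was 0.59 (SE 0.05; limma adjusted p = 0.0494), just under the threshold. Against scrambled siRNA it was 0.58 in that fit (limma adjusted p = 0.0965). Dexi, a gene on the opposite strand that overlaps Ciita, was at 11.4 and 10.4 FPKM in Baf53b siRNA, 12.9 and 10.2 in scrambled siRNA, and 12.3 and 9.43 in control libraries. The library kit marks strand, but the sources used here do not say whether the quantification used it.

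The composition of the set differed along with its level. Summed over the 9 genes, FPKM was 443 and 217 in libraries labelled Baf53b siRNA, 38.8 and 25.7 in scrambled siRNA, and 15.4 and 9.90 in control libraries. Cd74 made up 47.6% and 47.3% of that sum in Baf53b siRNA, 25.1% and 28.7% in scrambled siRNA, and 7.67% and 4.20% in control libraries. H2-DMa made up 3.22% and 5.31% in Baf53b siRNA, 26.5% and 26.4% in scrambled siRNA, and 71.4% and 71.3% in control libraries. The leading transcript of the set was therefore Cd74 in libraries labelled Baf53b siRNA and H2-DMa in control libraries. In scrambled siRNA libraries their deposited intervals overlapped.

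**Figure D2:**
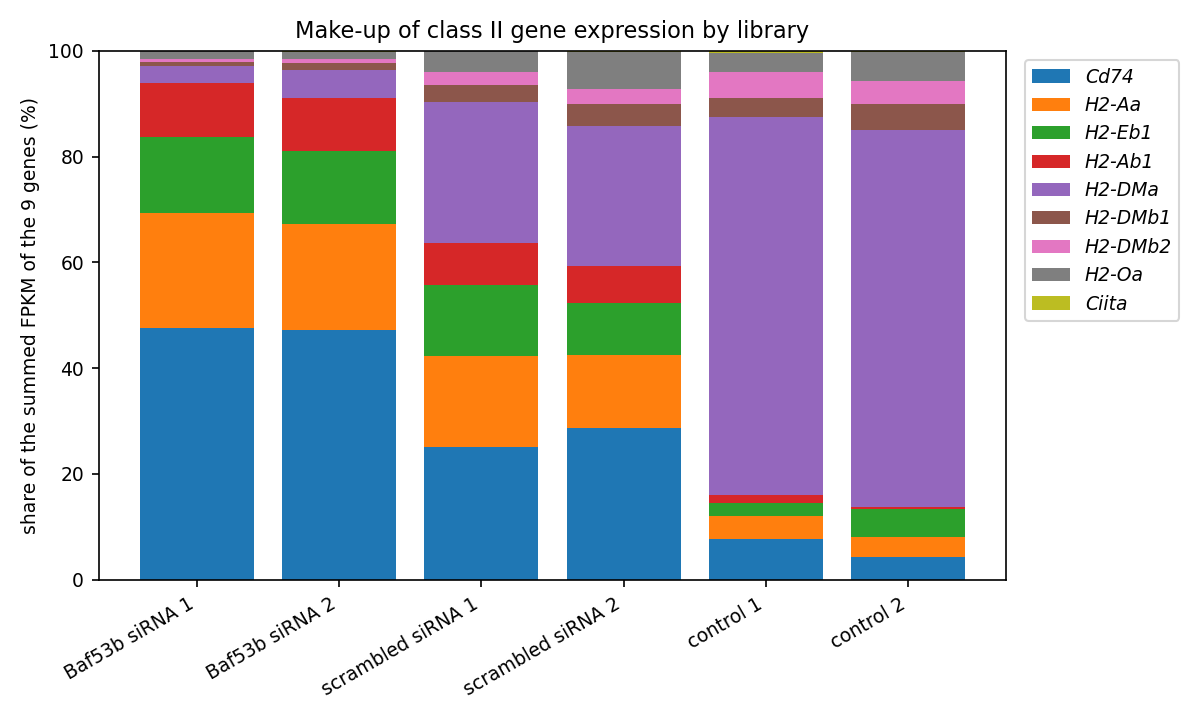
Each library's summed FPKM of the 9 genes split into the percentage taken by each gene, with bars for Baf53b siRNA, scrambled siRNA and control from left to right. Cd74 takes 47.6% and 47.3% in libraries labelled Baf53b siRNA, and H2-DMa takes 71.4% and 71.3% in control libraries.

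The proportions among the assembling chains were steadier than their levels. H2-Aa was 2.15 and 1.98 times H2-Ab1 on the FPKM scale in libraries labelled Baf53b siRNA and 2.14 and 1.95 times in scrambled siRNA. H2-Eb1 was 1.44 and 1.36 times H2-Ab1 in Baf53b siRNA and 1.65 and 1.38 times in scrambled siRNA. Control ratios over H2-Ab1 rest on fewer than 2 implied fragments and are not given. Cd74 was 1.03 and 1.08 times the sum of the 3 chains in Baf53b siRNA, 0.650 and 0.938 times in scrambled siRNA, and 0.923 and 0.439 times in control libraries. In the peptide exchange molecule the balance differed between the groups: H2-DMa was 2.37 and 2.66 times the sum of H2-DMb1 and H2-DMb2 in Baf53b siRNA, 4.66 and 3.77 times in scrambled siRNA, and 8.36 and 7.81 times in control libraries.

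In order of FPKM, the libraries labelled Baf53b siRNA had Cd74 first, then H2-Aa, H2-Eb1, H2-Ab1 and H2-DMa, followed by H2-Oa and H2-DMb1, then H2-DMb2 and Ciita. Among neighbours in that order, the deposited intervals of H2-DMb1 and H2-DMb2 overlapped in replicate 1, and those of H2-Oa and H2-DMb1, and of H2-DMb2 and Ciita, in replicate 2. In scrambled siRNA libraries Cd74 and H2-DMa were level at the top, and the intervals of H2-Aa and H2-Eb1 overlapped. In control libraries H2-DMa stood alone.

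Differences were fitted with limma on log2(FPKM + 1) over 14664 genes with a mean of at least 1 FPKM, and p-values were adjusted over all of them. All members but Ciita, 8 of 9, passed that floor. Only 6 members reach a mean of 1 FPKM over the 4 libraries without Baf53b siRNA, and only H2-DMa does in control libraries. Several thus passed because they are high in libraries labelled Baf53b siRNA. H2-DMb1 and H2-DMb2 passed only through those libraries, with means of 0.84 and 0.71 FPKM over the other 4. The H2-DMb1 call given below is therefore no support for a difference. Against scrambled siRNA, Cd74, H2-Aa and H2-Ab1 were called higher in libraries labelled Baf53b siRNA, 3 of 8, with 0.123% of all tested genes called (18 genes, all higher; 444 had an unadjusted p under 0.05). Against control, Cd74, H2-Aa, H2-Ab1, H2-Eb1, H2-DMb1 and H2-Oa were called, 6 of 8, with 1.23% of tested genes called. Between scrambled siRNA and control, 0 of 8 were called by limma, with 0.0% of tested genes called. In that contrast 325 genes had an unadjusted p under 0.05, and 736 had for Baf53b siRNA against control. With no difference at all, a share of 0.05 of tested genes would have such a p. The 444 and 325 genes are fewer than that share, and the 736 are close to it. Because these contrasts are those that led to the choice of the genes, nothing is read from the counts of members. The Baf53b siRNA libraries, whose Actl6b level was not called different by limma, enter 2 of the 3 contrasts. The contrasts share their libraries with one another.

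The 3 calls against scrambled siRNA depended on single libraries. Without control replicate 1, scrambled siRNA replicate 1 or scrambled siRNA replicate 2 none was left; without control replicate 2 or Baf53b siRNA replicate 1 there was 1, Cd74; and without Baf53b siRNA replicate 2 there were 4. Against control, H2-Oa kept its call only when Baf53b siRNA replicate 2 was the library left out, and H2-DMb1 lost its call without either control library or Baf53b siRNA replicate 1.

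The median log2 difference of the 8 tested members was 2.14 for Baf53b siRNA against scrambled siRNA, 3.32 for Baf53b siRNA against control and 1.18 for scrambled siRNA against control. Over all tested genes the medians were 0.00, 0.04 and 0.04 in the same comparisons. Fitted differences of Baf53b siRNA against scrambled siRNA spanned 0.56 for H2-DMa to 3.96 for Cd74.

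**Figure D3:**
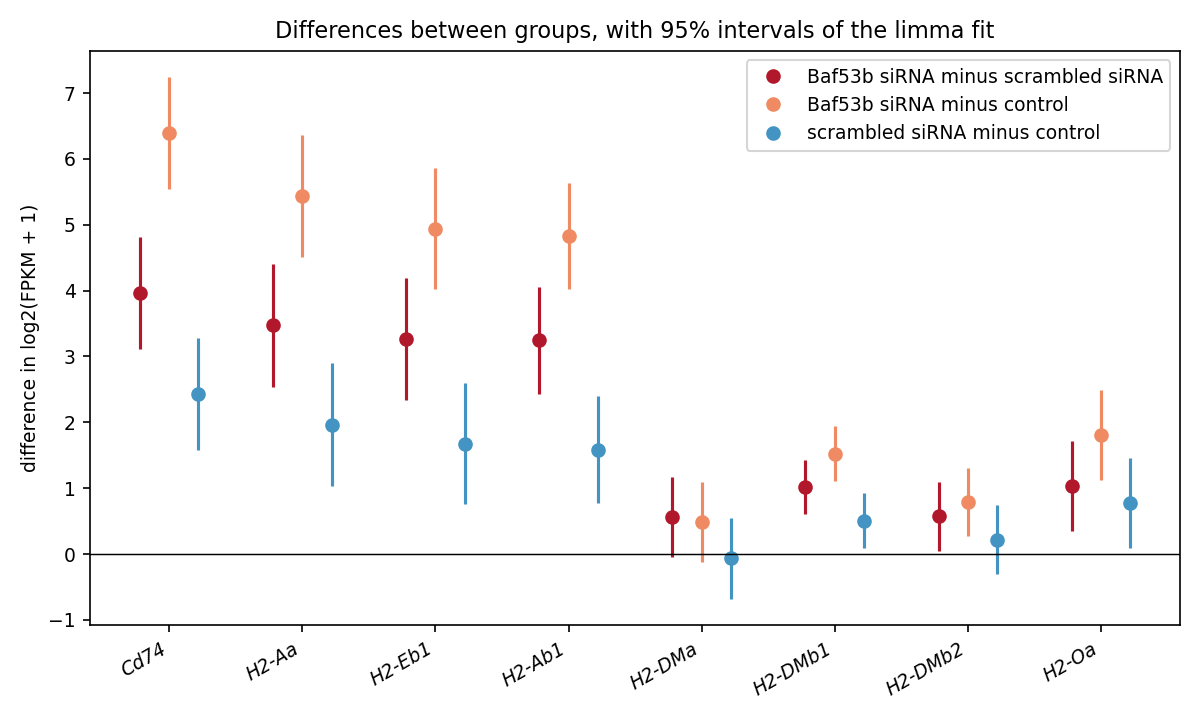
Fitted log2(FPKM + 1) differences of the 8 tested members in the 3 comparisons, with 95% confidence intervals from limma. Cd74 and the class II chains lie between 3.25 and 3.96 in Baf53b siRNA against scrambled siRNA, and the DM and DO genes lie between 0.56 and 1.04.

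Counting values rather than fits, both libraries labelled Baf53b siRNA exceeded both scrambled siRNA libraries for 9 of 9 members, as they did for 13.1% of tested genes, and both control libraries for 9 of 9, against 16.7%. Both scrambled siRNA libraries exceeded both control libraries for 6 of 9, against 12.7%, the exceptions being H2-DMa, H2-DMb2 and Ciita. The deposited intervals of both libraries were clear of those of the other group for 6 of 9 members between Baf53b siRNA and scrambled siRNA (1.21% of tested genes), 7 of 9 between Baf53b siRNA and control (2.79%) and 4 of 9 between scrambled siRNA and control (0.668%). The 4 in that last comparison were Cd74 and the 3 class II chains. For Cd74, the lowest lower bound in Baf53b siRNA was 8.59 times the highest upper bound in scrambled siRNA, and the lowest lower bound in scrambled siRNA was 3.90 times the highest upper bound in control. For the 3 chains these ratios were 4.34 to 4.92 and 2.00 to 2.49. For Ciita the ratio of Baf53b siRNA to scrambled siRNA was 3.88 and for H2-DMb1 1.21. Ciita is not among the tested genes behind the shares given here. Over the 8 tested members the counts in the 3 comparisons were 8, 8 and 6 by values, and 5, 6 and 4 by intervals.

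The 2 libraries labelled Baf53b siRNA differed from each other in the amount of class II transcript. On the FPKM scale, replicate 2 over replicate 1 was 0.486 for Cd74, 0.452 for H2-Aa, 0.491 for H2-Ab1, 0.464 for H2-Eb1 and 0.459 for H2-Oa. The same ratio was 0.597 for H2-DMb2, 0.807 for H2-DMa, 0.791 for H2-DMb1 and 0.900 for Ciita. Over all tested genes the median log2 difference of replicate 2 minus replicate 1 was -0.07 and its median absolute size 0.18 in this group, against -1.03 for Cd74. The Ciita values were close, but their deposited intervals were wide, 0.448 to 0.770 FPKM in replicate 1 and 0.406 to 0.689 in replicate 2. The Ciita ratio is thus set less closely than those of the chain genes. In scrambled siRNA the ratio was 0.757 for Cd74, between 0.486 and 0.581 for the 3 chains, and 1.17 for H2-Oa.

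The factors that seat CIITA on class II promoters were close to level. All 7 listed (Rfx5, Rfxank and Rfxap of RFX, Nfya, Nfyb and Nfyc of NF-Y, and Creb1) were tested, and limma called 0 of 7 in each of the 3 comparisons. Their median log2 difference was 0.06 for Baf53b siRNA against scrambled siRNA and 0.09 for Baf53b siRNA against control. Rfx5 was at 6.33 and 5.75 FPKM in libraries labelled Baf53b siRNA, 5.24 and 5.81 in scrambled siRNA, and 5.10 and 3.54 in control libraries, with overlap between Baf53b siRNA and scrambled siRNA. Nfyb had a log2 difference of 0.12 (SE 0.12) for Baf53b siRNA against scrambled siRNA, and Creb1 one of 0.18 (SE 0.15).

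Interferon gamma, which acts in part through IRF1, is the best known inducer of Ciita outside professional antigen presenting cells. Of 9 genes listed for that route, 7 were tested; 0 were called against scrambled siRNA and 2, Irf1 among them, rose against control. Irf1 was at 8.80 and 7.69 FPKM in libraries labelled Baf53b siRNA, 3.54 and 3.77 in scrambled siRNA, and 3.60 and 3.46 in control libraries, 1.03 above control on the log2 scale (SE 0.15; limma adjusted p = 0.0248). Like Ciita, Irf1 overlapped between scrambled siRNA and control. The Irf1 call was lost without any 1 of the 6 libraries (largest limma adjusted p = 0.293). Ifng itself was listed at 0 in 5 libraries and at 0.0424 FPKM in Baf53b siRNA replicate 2.

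Genes that prepare antigen and trim the invariant chain in endosomes moved in part. Of 9 listed, 8 were tested, 0 were called against scrambled siRNA, and 2, Ctss and Ifi30, rose against control. Ctss, cathepsin S, which cuts the invariant chain down, was at 256 and 232 FPKM in libraries labelled Baf53b siRNA, 123 and 131 in scrambled siRNA, and 55.5 and 64.5 in control libraries. Its log2 difference from control was 2.01 (SE 0.15; limma adjusted p = 0.00306). Ifi30, a thiol reductase that unfolds antigens, was at 13.9 and 11.8 FPKM in libraries labelled Baf53b siRNA, 4.67 and 5.45 in scrambled siRNA, and 2.78 and 1.78 in control libraries. Its log2 difference from control was 2.09 (SE 0.20; limma adjusted p = 0.00611), and without Baf53b siRNA replicate 1 the call was lost (limma adjusted p = 0.0823). For both genes the 3 groups were apart, in the order seen for the chains.

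The partners that class II meets at the surface were mixed. Lag3, an inhibitory receptor that binds class II, was at 18.3 and 13.7 FPKM in libraries labelled Baf53b siRNA, 9.15 and 9.41 in scrambled siRNA, and 3.41 and 2.44 in control libraries. On the log2 scale it rose against control by 2.12 (SE 0.19; limma adjusted p = 0.00603), a call lost without Baf53b siRNA replicate 1 (limma adjusted p = 0.06). Cd4, the co-receptor of helper T cells, was at 0.971 and 0.451 FPKM in libraries labelled Baf53b siRNA, 0.304 and 0.184 in scrambled siRNA, and 0.210 and 0.0632 in control libraries, under the floor for testing. Of 6 costimulatory genes only Cd86 and Icosl were tested, and neither was called: Cd86 differed from control by 1.15 (SE 0.21; limma adjusted p = 0.0622) and Icosl by 0.69 (limma adjusted p = 0.281). Cd80 and Cd40 were under 0.6 FPKM in every library. Of 6 genes for MIF and the receptors that act with CD74, 4 were tested and 0 were called, Cxcr4 (log2 difference 0.71, SE 0.23, against scrambled siRNA) and Ddt (-0.10, SE 0.18) included. Cxcr4 reached the floor for testing only through the Baf53b siRNA libraries (mean 0.907 FPKM over the other 4), so nothing is read from its difference. Mif was at 275 and 191 FPKM in libraries labelled Baf53b siRNA, 267 and 203 in scrambled siRNA, and 258 and 197 in control libraries, so the groups overlapped and replicate 1 was the higher in each.

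Markers of cells that can carry class II moved with it in part. In bulk tissue, fewer cells of a type and less RNA per cell cannot be told apart. All 14 listed microglial markers were tested; 0 were called against scrambled siRNA and 6 rose against control, C1qa, C1qb, Aif1, Trem2 and Cx3cr1 among them. Their summed FPKM was 751 and 614 in libraries labelled Baf53b siRNA, 451 and 445 in scrambled siRNA, and 290 and 283 in control libraries. The median log2 difference of the list was 0.43 for Baf53b siRNA against scrambled siRNA and 0.94 for Baf53b siRNA against control, against 2.14 and 3.32 for the tested class II set. C1qa, a complement chain made by microglia, was at 170 and 122 FPKM in libraries labelled Baf53b siRNA, 71.3 and 76.8 in scrambled siRNA, and 36.7 and 31.4 in control libraries. The C1qa call stood without each library in turn, C1qb lost its call without control replicate 2 (limma adjusted p = 0.0513), Aif1 without control replicate 1 or Baf53b siRNA replicate 1, Trem2 without either control library or Baf53b siRNA replicate 1, and Cx3cr1 without any 1 of the 6 libraries. With a library left out, the largest limma adjusted p was 0.0963 for Aif1, 0.122 for Trem2 and 0.261 for Cx3cr1.

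Leukocyte lists were sparse. The 11 T cell markers summed to 18.0 and 8.47 FPKM in libraries labelled Baf53b siRNA, 5.72 and 4.12 in scrambled siRNA, and 2.97 and 3.64 in control libraries. Cd3e, Cd3d and Cd3g, the chains that define T cells, were listed at 0 in both control libraries. Cd3g was at 2.43 and 1.26 FPKM in libraries labelled Baf53b siRNA and 0.0751 and 0.201 in scrambled siRNA. Cd3e was at 0.673 and 0.332 FPKM in libraries labelled Baf53b siRNA and 0.480 and 0.246 in scrambled siRNA, and Cd3d at 0.937 and 0.305 in Baf53b siRNA and 0.556 and 0.0951 in scrambled siRNA, so these chains overlapped. Only 3 of the list were tested and 0 were called, Trac with a log2 difference of 1.54 (SE 0.38) and Trbc2 with 0.49 (SE 0.32) against scrambled siRNA. Trac and Trbc2 reached the floor for testing only through the Baf53b siRNA libraries. Lck, the other tested marker, was the largest part of the scrambled siRNA and control sums. It was at 2.12 and 1.68 FPKM in libraries labelled Baf53b siRNA, 2.09 and 1.57 in scrambled siRNA, and 1.43 and 2.37 in control libraries. Its groups overlapped. The 7 B cell markers summed to 2.78 and 1.37 FPKM in Baf53b siRNA, 0.535 and 0.347 in scrambled siRNA, and 0.320 and 0.743 in control libraries, with 0 tested.

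Among myeloid lists, the 8 dendritic cell markers summed to 8.20 and 8.82 FPKM in libraries labelled Baf53b siRNA, 6.01 and 4.90 in scrambled siRNA, and 5.42 and 3.90 in control libraries, with 1 tested (Zbtb46) and 0 called. Zbtb46, the largest part of the scrambled siRNA and control sums, overlapped between Baf53b siRNA and scrambled siRNA, as did Cd209a and Batf3. The other dendritic markers, all under the floor, were higher in both Baf53b siRNA libraries than in either scrambled siRNA library. Itgax was at 2.56 and 1.87 FPKM in Baf53b siRNA, 0.495 and 0.380 in scrambled siRNA, and 0.136 and 0.139 in control libraries. The 8 markers of border macrophages summed to 3.88 and 5.15 FPKM in Baf53b siRNA, 2.78 and 2.24 in scrambled siRNA, and 2.79 and 2.33 in control libraries, with 1 tested (Stab1) and 0 called. The 7 monocyte markers summed to 19.8 and 26.2 FPKM in Baf53b siRNA, 15.4 and 13.6 in scrambled siRNA, and 10.3 and 9.76 in control libraries. Of these, Ly6c2, Vcan, Fn1 and Chil3 overlapped between Baf53b siRNA and scrambled siRNA. Ccr2 was at 1.54 and 1.63 FPKM in Baf53b siRNA, 0.208 and 0.447 in scrambled siRNA, and 0.0617 and 0.0984 in control libraries. Ccr2 was under the floor and not tested. The 7 neutrophil markers summed to 7.46 and 12.3 FPKM in Baf53b siRNA, 4.98 and 5.86 in scrambled siRNA, and 1.96 and 1.91 in control libraries, with Ly6g, a defining marker, at 0 in all 6. Plac8, a monocyte gene, was at 2.61 and 2.83 FPKM in libraries labelled Baf53b siRNA, 0.571 and 0.238 in scrambled siRNA, and 0.227 and 0.157 in control libraries. It reached the floor for testing only through the Baf53b siRNA libraries (mean 0.298 FPKM over the other 4), so no test is given. Csf3r was at 5.71 and 4.87 FPKM in Baf53b siRNA, 3.70 and 3.65 in scrambled siRNA, and 1.37 and 1.41 in control libraries. It was the largest part of the neutrophil sum in every library but Baf53b siRNA replicate 2, where Retnlg was. Against control Csf3r rose by 1.39 (limma adjusted p = 0.00994), a call lost without either control library or either Baf53b siRNA library. Where replicate 1 of Baf53b siRNA exceeded replicate 2 for the class II chains, the T cell, B cell and microglial sums were also higher in replicate 1, and the monocyte and border macrophage sums were higher in replicate 2. The neutrophil and dendritic sums were higher in replicate 2 only through 1 gene each: without Retnlg the neutrophil sums were 7.21 and 6.39 FPKM, and without Batf3 the dendritic sums were 7.95 and 6.42, in replicates 1 and 2.

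**Figure D4:**
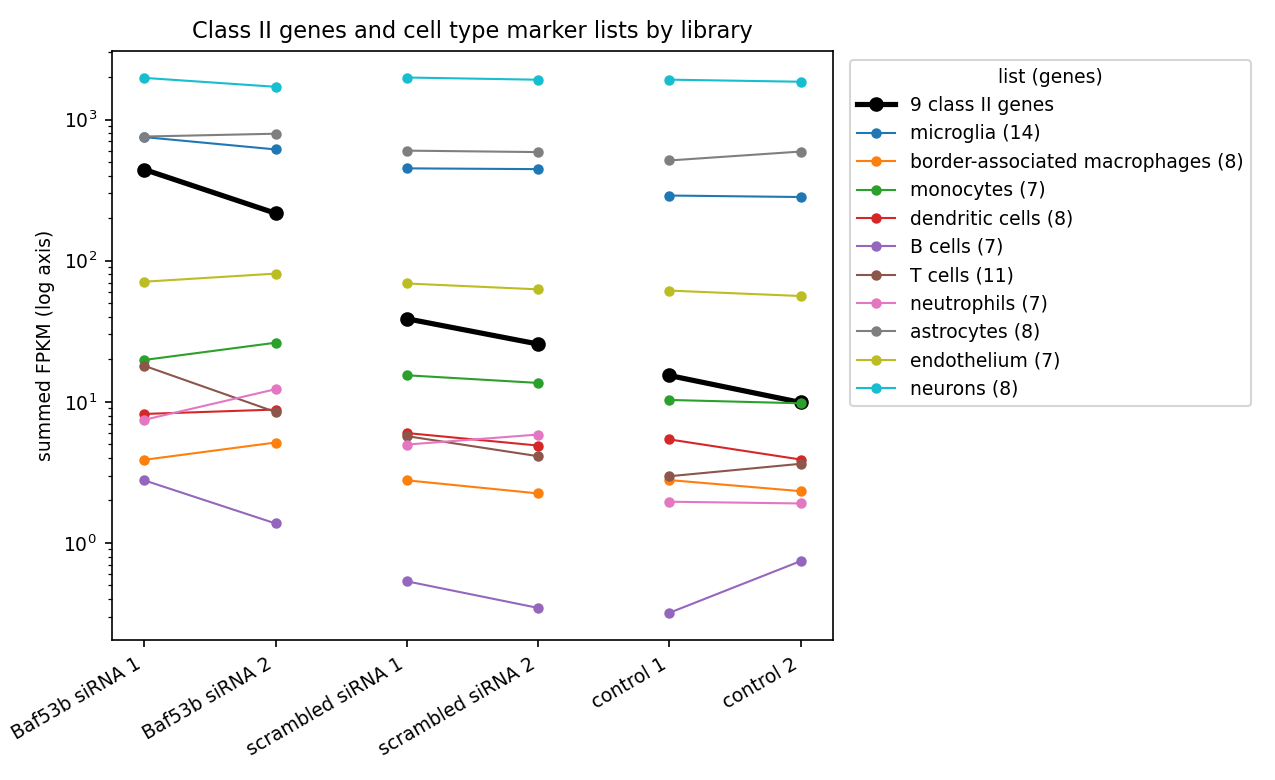
Summed FPKM of each marker list in every library on a log axis, beside the summed FPKM of the 9 class II genes. The microglial sum is 751 and 614 in libraries labelled Baf53b siRNA against 290 and 283 in control libraries, and the neuronal sum lies between 1706 and 1985 in all 6.

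Of the other brain cells, the 8 neuronal markers summed to 1973 and 1706 FPKM in libraries labelled Baf53b siRNA, 1985 and 1915 in scrambled siRNA, and 1917 and 1853 in control libraries, and 0 of 8 were called, with log2 differences against scrambled siRNA of -0.16 (SE 0.13) for Slc17a6 and -0.12 (SE 0.13) for Gad2. The 7 endothelial markers had 0 called, with 0.57 (SE 0.39) for Cldn5 and 0.30 (SE 0.25) for Cdh5. Of 8 astrocyte markers, all tested, 1 was called against scrambled siRNA and 2 against control, with list medians of 0.19 and 0.07. Slc1a2, Gja1, Gjb6, Sox9 and Aldh1l1 overlapped between Baf53b siRNA and control libraries. Gfap, the filament protein of reactive astrocytes, was at 170 and 178 FPKM in libraries labelled Baf53b siRNA, 45.1 and 47.3 in scrambled siRNA, and 16.9 and 18.3 in control libraries. Gfap rose against scrambled siRNA by 1.89 (SE 0.13; limma adjusted p = 0.0111), a call lost without scrambled siRNA replicate 1 (limma adjusted p = 0.0553) and with no floor (0.0862), and against control by 3.23 (limma adjusted p = 0.000553). Aqp4 rose against control by 0.80 (limma adjusted p = 0.0446), a call lost in 11 of 14 alternatives, among them the removal of any 1 of the 6 libraries (largest 0.349), rescaling (0.0917) and quantile normalization (0.131). Gfap differed little between the Baf53b siRNA replicates in which the class II chains were apart. What part any of these cell types has in the class II values was not tested.

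The members followed one another across the 6 libraries. The Pearson correlation of each with the mean of the other 8, on log2(FPKM + 1), was 0.955 or more for all except Ciita (0.936) and H2-DMa (0.719). The 6 points fall in 3 groups and share each library's normalisation, so these values only describe likeness. Of 12521 other protein-coding genes tested, 23 had a correlation above 0.99 with the mean of the members and 201 above 0.95. The nearest included H2-K1, an MHC class I heavy chain (0.998), Slfn2 (0.998), S100a4 (0.996), Rab3il1, Rgs10, Tnfrsf1b and Myo1f (each 0.995). H2-K1 was at 90.4 and 52.6 FPKM in libraries labelled Baf53b siRNA, 16.3 and 14.2 in scrambled siRNA, and 7.38 and 5.27 in control libraries. Its 3 groups were apart, and like the chains it was lower in replicate 2 of Baf53b siRNA. S100a4, a calcium-binding protein, was at 20.8 and 14.7 FPKM in libraries labelled Baf53b siRNA, 7.31 and 5.15 in scrambled siRNA, and 3.38 and 2.48 in control libraries.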

How the data were processed

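Polyadenylated RNA of lateral amygdala was sequenced as paired ends with a stranded kit, per the labels' protocols. bcl2fastq 2.19.1.403, TopHat2 2.1.1, Cufflinks 2.2.1 and build mm10 are named in the submitters' processing notes. For each library the authors deposited a table of FPKM, already scaled for transcript length and library depth, and its lower and upper bounds, per the file headers. The sources used here give neither the level of these intervals nor the errors that they cover. Each interval comes from a single library, so it holds no spread between libraries. No read counts were used. Fragments behind a value were implied from it as the square of 2 times FPKM over the half-width of its interval. This takes the interval as counting error alone, so implied fragments are not counts, as the 0.104 for H2-Ab1 in control replicate 2 shows. Each table has 50539 rows; 92 spike-in rows were left out and 48 genes with several rows were summed. Types and overlaps came from GENCODE M21, which matched 50160 identifiers, and promoter windows from RefSeq GRCm38.p6.

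FPKM were taken to log2(FPKM + 1) and fitted for 14664 genes with a mean of at least 1 FPKM, leaving out short RNAs and 4 genes with a failed estimate, with limma 3.58.1 in R 4.3.3. All 6 libraries and 3 groups entered 1 fit (3 residual and 3.99 prior degrees of freedom), with Benjamini-Hochberg adjustment and a threshold of 0.05. Log2 differences understate changes of low genes. The fit was tested on simulated data. The members, lists and letters were chosen with earlier results of these data known. All 9 members and the other class II loci were named. Of each other list, up to 4 called genes were named by their difference from control or, where none was called, the 2 tested genes that differed most from scrambled siRNA, and the 8 genes most like the members' mean were named too. Other list genes were named after their values were seen, and some genes that meet these rules are not reported here. Alternatives were a pseudocount of 0.1, no floor, a floor of 5 FPKM, other scalings, other variance settings, the compared groups alone, the replicate number as a block, and each library left out.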

Additional observations from a re-analysis of the deposited data

How the results depend on the processing

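The count of members called between Baf53b siRNA and scrambled siRNA was 3, but 0 with a pseudocount of 0.1 and 0 with no floor on low values, and it ran from 0 to 4 as each library was left out. Against control, 6 members were called, 2 with no floor (Cd74 and Ciita), and 4 to 6 with a library left out. Between scrambled siRNA and control it was 0 throughout. Over all genes, Baf53b siRNA against scrambled siRNA gave 18 calls, 1 with a pseudocount of 0.1, 0 with no floor, 8 with a floor of 5 FPKM, 29 after rescaling to nuclear protein-coding genes, 30 with robust variance moderation, and 4 to 24 with a library left out. Baf53b siRNA against control gave 181 calls, 42 with no floor, 71 with a floor of 5 FPKM, and 34 to 139 with a library left out. Scrambled siRNA against control gave 0 calls, 1 with the compared groups alone, and 0 to 7 with a library left out. The cause of these moves was not tested.

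The only members' differences to change sign were those of H2-DMa between scrambled siRNA and control, -0.07 in the fit over all libraries and -0.35 to 0.22 with a library left out. Of the other values of single members, 280 kept their direction and side of the threshold, 36 lost a call and 4 gained one. Runs of the list genes' calls were added after seeing the data; with no floor, the named list genes lost their calls except Ctss and Gfap against control.

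Replicate numbers are shared between the groups in the labels only. Deviations of same-numbered libraries correlated at 0.39, 0.183 and 0.359 over 14664 genes in the 3 pairs of groups. With a replicate block, a paired fit, 3, 5 and 0 members were called in Baf53b siRNA against scrambled siRNA, Baf53b siRNA against control and scrambled siRNA against control, and 13, 188 and 0 of all genes; the member lost was H2-Oa against control, which was also lost with quantile normalization and with the compared groups alone. Ciita, H2-DMb2 and the control values of the class II chains rest on few implied fragments. For H2-DMb2, the effects of depth and of the windows shared with H2-DMb1 were not told apart.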

Other observations

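Several leukocyte genes differed between the replicates labelled Baf53b siRNA in opposite directions, and they were picked after their values were seen. Higher in replicate 1, as the class II chains were, were Trac (6.69 FPKM in replicate 1 and 2.29 in replicate 2), the T cell receptor alpha constant gene, and Cd79a (0.731 and 0.0343), a B cell receptor component. Higher in replicate 2 were Retnlg (0.247 in replicate 1 and 5.91 in replicate 2), a neutrophil gene, Chil3 (0 and 3.70) and Batf3 (0.253 and 2.39), a dendritic cell factor.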
